A study of Homo sapiens with 27 samples.

Results

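The regions described here are peaks of acetylated H2A.Z (acH2A.Z) that were called in HL-60 cells given siMyc and share no base with any acH2A.Z peak called in cells given siNTC. Peaks on chromosomes 1 to 22 were considered, and 5514 of the 14264 siMyc peaks there met the rule. The other 8750 siMyc peaks shared at least 1 base with a siNTC peak and are called shared peaks below. The regions were chosen by the peak calls of the siMyc and siNTC acH2A.Z lists themselves, so the number of regions and their position relative to siNTC peaks are descriptions.

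HL-60 is a human promyelocytic leukaemia cell line. Each of the 27 libraries of the series stood alone in its group, without a replicate. ChIP of H2A.Z and of acH2A.Z was done in cells given siMyc, in cells given 100 µM DRB, in cells given 0.8 µM ActD, in cells given siNTC and in cells given DMSO. Input DNA, and nascent RNA (newly made transcripts), were measured in DRB, ActD and DMSO cells, and nascent and total RNA were also measured in untreated cells. RNA immunoprecipitation (RIP) with antibodies to H2A.Z, acH2A.Z and Tip60 was done in untreated cells. The labels name the siRNAs only as siMyc and siNTC. RNA of siRNA-treated cells was not analysed here, so the level of MYC after siMyc was not checked. DRB inhibits the kinases that release RNA polymerase II into elongation, and ActD binds DNA and blocks transcription.

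H2A.Z is a variant of histone H2A that replaces it in nucleosomes at gene starts and enhancers. Acetylation of its tail, carried out by the TIP60 (KAT5) complex among others, is found at active starts, whereas H2A.Z without it also lies at silent or poised ones. MYC is a transcription factor that binds the sequence CACGTG with its partner MAX and recruits acetyltransferase complexes including TIP60.

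The siMyc and siNTC acH2A.Z lists differed in strength before any region was compared. The peaks of the siMyc list held 350001 normalized tags, which is 3.5% of the 10000000 assumed as the scale, and the peaks of the siNTC list held 3934510 or 39.3%. The median peak held 15.4 tags over 637 bp in siMyc and 103 tags over 1308 bp in siNTC. The corresponding share was 52.6% in DRB, 52.1% in ActD and 64% in DMSO. Tags had been scaled by the authors in opposite ways in the siMyc and siNTC lists, per the file headers. Effects of siMyc and of immunoprecipitation strength on these lists cannot be told apart with 1 library each. A region absent from a list has no called peak there, which is not the same as having no tags. In untreated total RNA, the promyelocyte genes MPO, PRTN3, CTSG, LYZ and AZU1 stood at 533, 252, 101, 77.6 and 66.3 CPM (counts per 1000000 counts of the table), while ELANE was listed at 0 CPM. Of 19 erythroid, 18 lymphoid and 18 epithelial or fibroblast markers, 3, 3 and 1 reached 1 CPM, the highest being TFR2 at 13.5 CPM, CD4 at 59.9 CPM and VIM at 94.5 CPM.

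Few of the regions hold a gene start with its whole upstream stretch. The 250 bases before a start lay wholly inside a region for 82 starts of 73 genes, 54 of them coding. Below are those with the highest tag counts among coding genes, to show what sequence the regions hold at starts, with 4 from regions that also had acH2A.Z peaks in DRB, ActD and DMSO cells and 2 from regions with a peak in none of those. They are from RefSeq, build GRCh38.p14, written 5′ to 3′ on the strand of the gene, and end 1 base before the start. Capitals mark CACGTG, the MYC and MAX motif, and GGGCGG on either strand, the motif of SP1-family factors.
PRMT5 (chr14:22929377-22929626, minus strand): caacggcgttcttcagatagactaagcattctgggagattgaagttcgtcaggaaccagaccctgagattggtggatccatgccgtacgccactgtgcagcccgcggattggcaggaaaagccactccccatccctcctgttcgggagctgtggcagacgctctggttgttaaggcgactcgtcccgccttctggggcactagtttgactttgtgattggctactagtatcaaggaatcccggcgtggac
ING4 (chr12:6663120-6663369, minus strand): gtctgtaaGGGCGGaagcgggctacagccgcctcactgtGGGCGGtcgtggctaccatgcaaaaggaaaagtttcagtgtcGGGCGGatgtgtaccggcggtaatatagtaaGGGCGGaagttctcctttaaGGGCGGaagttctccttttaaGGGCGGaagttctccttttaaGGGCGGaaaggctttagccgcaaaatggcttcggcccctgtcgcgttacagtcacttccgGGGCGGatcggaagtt
NLRC4 (chr2:32264887-32265136, minus strand): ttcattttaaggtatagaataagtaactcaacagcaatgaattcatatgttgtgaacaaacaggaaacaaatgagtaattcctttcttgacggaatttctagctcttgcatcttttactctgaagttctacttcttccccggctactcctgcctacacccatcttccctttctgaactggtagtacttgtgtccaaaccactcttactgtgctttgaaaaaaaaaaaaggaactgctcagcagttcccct
APEX1 (chr14:20454976-20455225, plus strand): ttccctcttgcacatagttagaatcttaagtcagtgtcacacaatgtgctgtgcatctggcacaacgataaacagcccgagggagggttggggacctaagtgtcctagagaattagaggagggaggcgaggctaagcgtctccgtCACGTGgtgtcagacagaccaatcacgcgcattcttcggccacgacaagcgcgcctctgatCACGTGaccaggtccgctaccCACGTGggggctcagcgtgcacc
LTC4S (chr5:179793736-179793985, plus strand): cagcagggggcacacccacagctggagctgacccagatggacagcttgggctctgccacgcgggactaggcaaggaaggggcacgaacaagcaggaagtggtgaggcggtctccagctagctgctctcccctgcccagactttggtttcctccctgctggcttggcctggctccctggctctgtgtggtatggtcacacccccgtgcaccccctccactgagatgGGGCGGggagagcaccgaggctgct
YPEL4 (chr11:57649913-57650162, minus strand): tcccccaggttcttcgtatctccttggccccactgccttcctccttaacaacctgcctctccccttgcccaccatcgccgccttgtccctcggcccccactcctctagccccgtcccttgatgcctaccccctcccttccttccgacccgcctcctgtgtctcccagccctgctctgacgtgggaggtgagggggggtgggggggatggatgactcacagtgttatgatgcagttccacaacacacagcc
The ING4 stretch holds 8 GGGCGG, the APEX1 stretch 3 CACGTG and the LTC4S stretch 1 GGGCGG, while the PRMT5, NLRC4 and YPEL4 stretches hold neither motif. CACGTG was present in 4 of the 82 stretches inside the regions (4.88%, exact 95% binomial interval 1.34 to 12), against 7.46% of 2171 stretches inside shared peaks and 6.28% of all 33558 stretches. GGGCGG on either strand was present in 36.6% (26.2 to 48) inside the regions, against 44.7% inside shared peaks and 42.6% of all. TATAAA on either strand was present in 11% (5.14 to 19.8), against 6.86% inside shared peaks and 10.8% of all. The interval of the regions held the share of all stretches for each of these motifs. Intervals here and below cover counting error only, and neither peaks nor PCR-amplified reads are independent of each other.

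The regions were weak and narrow peaks within the siMyc list. Their median normalized tag count was 10.7 (quartiles 9.49 and 12.9, highest 125), against 23.6 (14.6 and 39.6, highest 1518) for shared peaks. A width of exactly 500 bp, the narrowest in the list, was given to 77.3% of the regions and to 23.6% of shared peaks. Regions wider than 1000 bp numbered 211 (3.83%), against 39.3% of shared peaks. Of the 1000 siMyc peaks with the highest tag counts, 13 were among the regions. All the regions together held 19.7% of the tags in siMyc peaks and 3.17 Mb of sequence. The fold over control did not follow the tag count, with a median of 6.36 in the regions and 6.07 in shared peaks, and 35.5% of regions and 24.9% of shared peaks had a fold of at least 8. The control tags were low under the regions, with a median of 2.1 tags, against 4.7 tags under shared peaks, and 17% of regions and 2.87% of shared peaks had fewer than 1 control tag.

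**Figure D1:**
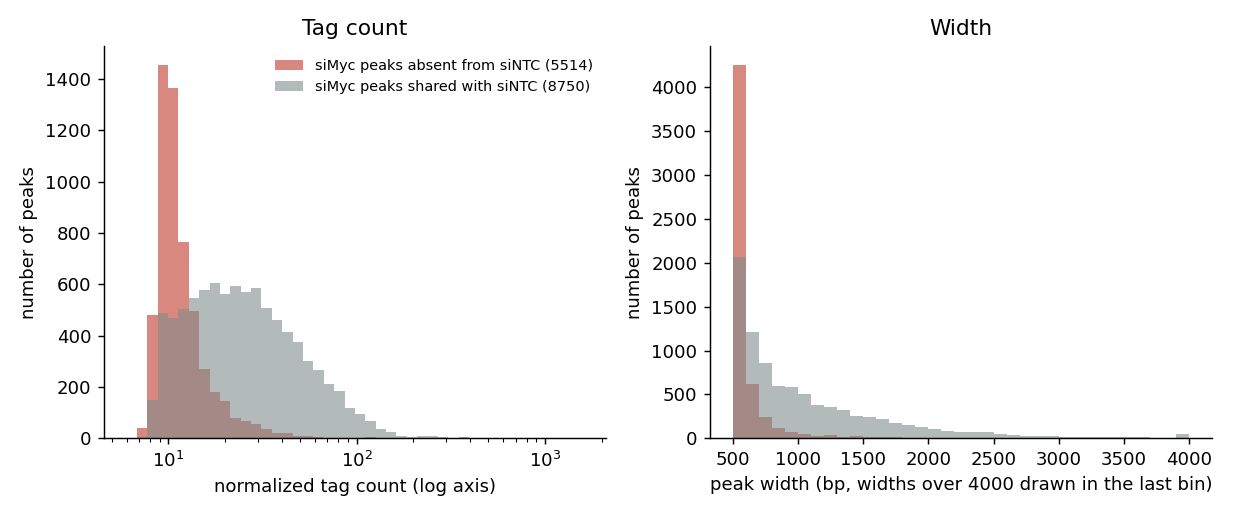
Normalized tag count (left, log axis) and width in bp (right) of the 5514 siMyc acH2A.Z peaks absent from the siNTC list (red) and the 8750 shared with it (grey), as numbers of peaks per bin. The absent peaks gather at low tag counts, with a median of 10.7 against 23.6, and at the narrowest width of 500 bp.

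The distance to the nearest siNTC peak had a median of 30711 bp, with quartiles of 3974 and 154136 bp, and ran from 2 to 6061056 bp. The rule separated like peaks at its edge. The 87 regions within 100 bp of a siNTC peak had a median of 10.8 tags and 71.3% of them shared a base with a DMSO acH2A.Z peak. The 128 shared peaks that overlapped siNTC by 100 bases or fewer had a median of 11.1 tags and 72.7% of them did. At over 100000 bp from any siNTC peak there were 1734 regions (31.4%), with a median of 10.4 tags, and 7.61% of them shared a base with a DMSO peak.

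A minority of the regions had an acH2A.Z peak in the cells that were not given siRNA. A base was shared with a DMSO peak by 1160 regions, or 21% (20 to 22.1), against 85.7% of shared peaks and 60.7% of all siMyc peaks. The share in DRB was 35.1% (1933 regions), against 98.2% of shared peaks and 73.8% of all siMyc peaks. The share in ActD was 29.9% (1649 regions), against 84.6% of shared peaks and 63.4% of all. At least 1 of these lists held 2151 regions (39%), against 99.1% of shared peaks. Those 39% are therefore particular to siMyc only relative to the siNTC list, since these other cells had no siMyc. The remaining 3363 regions (61%) had no called acH2A.Z peak in DMSO, DRB or ActD.

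**Figure D2:**
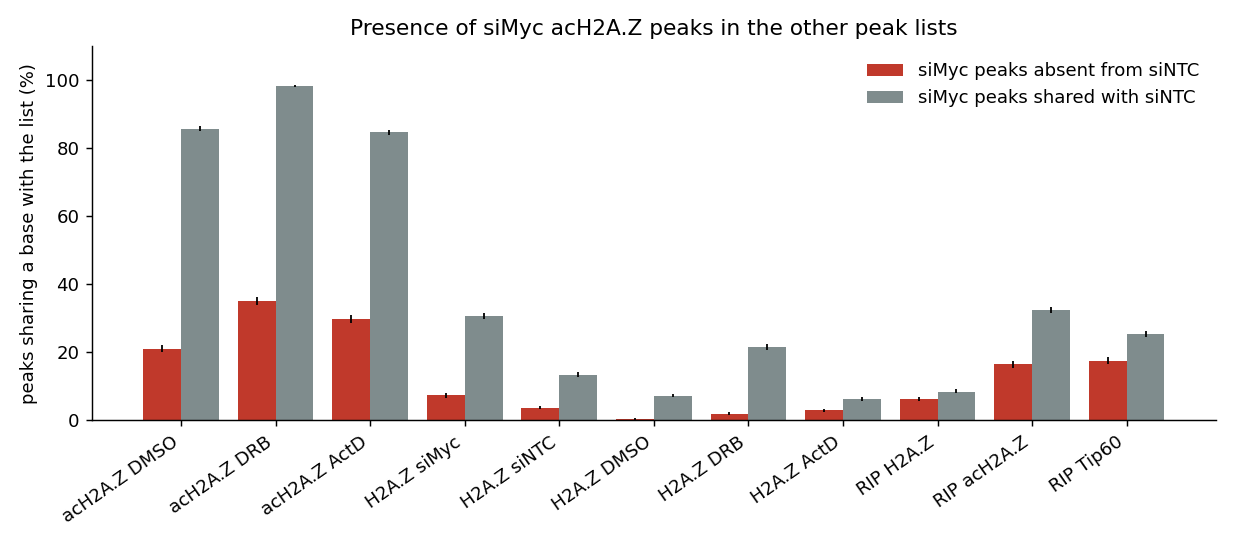
Share of siMyc acH2A.Z peaks, in percent, that share at least 1 base with each of 11 other peak lists, for peaks absent from siNTC (red) and shared with siNTC (grey), with exact 95% binomial intervals as error bars. The absent peaks are lower for every list shown, at 21% against 85.7% in the DMSO acH2A.Z list.

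The lower presence was also there within bins of tag count. The groups had been split by calls in siNTC, another list of cells without siMyc. The part of that split in the difference was not tested. Between 10 and 12 tags, 14% of 1691 regions shared a base with a DMSO peak, against 77.5% of 692 shared peaks. Between 24 and 130 tags, a wide bin in which both groups need not match in tag count, the shares were 68.8% of 237 regions and 92.4% of 4211 shared peaks. Where a region did have a DMSO, DRB or ActD peak, that peak was weaker in the median than those over shared peaks. Its median in DRB was 178 tags, against 345 over shared peaks and 88.4 in the whole list. In ActD it was 105 tags, against 277 over shared peaks and 24.5 in the whole list. In DMSO it was 150 tags, against 438 over shared peaks and 162 in the whole list. Of the 1160 regions in a DMSO peak, 376 (32.4%) lay in one that touched a siNTC peak elsewhere along its length, and these DMSO peaks had a median of 637 tags. The other 784 regions lay in DMSO peaks that touched no siNTC peak, with a median of 82.7 tags.

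The regions fell mainly into a group found in no other acH2A.Z list and a group found in all of DMSO, DRB and ActD. The 3363 regions (61%) in none of these lists had a median of 10.3 tags and 1.9 control tags, 1.5% of those with a known distance lay at a gene start, and 14.1% were on chromosome 18. The 960 regions (17.4%) in all of them had a median of 12.8 tags and 2.6 control tags, 23.9% lay at a gene start, and 4.06% were on chromosome 18. Of shared peaks, 0.926% were in none of these lists and 77.5% in all of them. A further 486 regions (8.81%) were in DRB and ActD but not DMSO, against 6.49% of shared peaks. In DRB alone were 373 (6.76%), against 6.78%, and in ActD alone 132 (2.39%), against 0.0571%. In DMSO and DRB were 114 (2.07%), against 7.51%, and in DMSO and ActD 71 (1.29%), against 0.549%. In DMSO alone were 15 (0.272%), against 0.229%.

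H2A.Z itself, measured with an antibody that does not select for acetylation, was called at few of the regions. The H2A.Z lists were weak, with peaks that held 2.66% of the assumed 10000000 tags in siMyc and 2.09% in siNTC. In DRB, ActD and DMSO the peaks held 0.898%, 1.32% and 0.412%. A region without an H2A.Z peak was therefore not shown to lack H2A.Z. The H2A.Z siMyc list shared a base with 407 regions (7.38%), against 30.6% of shared peaks and 21.6% of all siMyc peaks. The H2A.Z siNTC list shared a base with 204 regions (3.7%), against 13.4% of shared peaks and 9.63% of all. The H2A.Z siMyc list is the longer one, with 11076 peaks against 6890 in siNTC. H2A.Z was called in siMyc and not siNTC at 342 regions, in siNTC and not siMyc at 139, and in both at 65. Over all 14264 siMyc acH2A.Z peaks, the H2A.Z siMyc list shared a base with 3087 and the H2A.Z siNTC list with 1374. The split into siMyc only, siNTC only and both was not computed for them. The H2A.Z lists of DRB, ActD and DMSO cells shared a base with 2.01%, 2.99% and 0.381% of the regions, against 14%, 5.04% and 4.61% of all siMyc peaks. No peak in any of the other 8 H2A.Z and acH2A.Z lists was called at 3033 regions (55%). That share was not computed over all siMyc peaks. The RIP lists of Tip60, acH2A.Z and H2A.Z, which mark transcribed sequence recovered as RNA, shared a base with 17.5%, 16.5% and 6.17% of the regions, against 22.3%, 26.3% and 7.59% of all siMyc peaks.

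The regions lay mostly away from gene starts. Starts were taken from a RefSeq table that holds 82% of coding genes outside chromosome 8 and was not used for chromosome 8, which leaves 5209 regions and 8363 shared peaks with a distance. Within 1000 bp of a start were 360 regions, or 6.91% (6.24 to 7.63), against 56.6% of shared peaks and 37.5% of all siMyc peaks. The median distance was 27514 bp (quartiles 6524 and 75497) for the regions and 573 bp (42 and 13652) for shared peaks. Further than 5000 bp from a start, 39.4% of the regions lay inside a gene and 38.7% between genes, against 18.5% and 15.8% of shared peaks. At 10 to 12 tags, 4.86% of regions and 52% of shared peaks lay at a start.

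**Figure D3:**
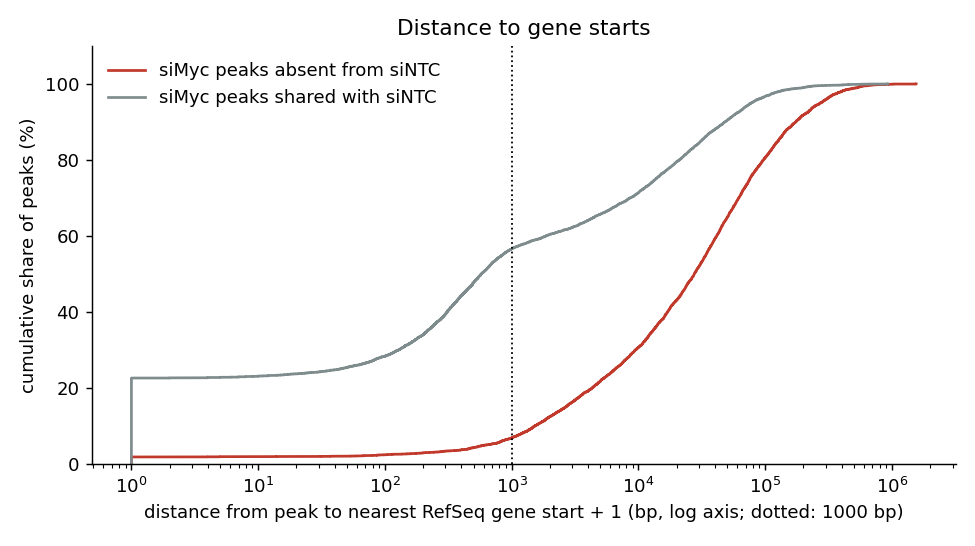
Cumulative share of peaks, in percent, by distance in bp to the nearest RefSeq gene start (log axis, 1 added), for siMyc acH2A.Z peaks absent from siNTC (red) and shared with it (grey), chromosome 8 left out. At 1000 bp, the dotted line, the curves stand at 6.91% and 56.6%.

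The strongest regions were broad and, in most cases, also had acH2A.Z in the other cells. The highest tag count, 125, was at chr1:145977638-145980849 inside POLR3GL, which encodes a subunit of RNA polymerase III, and the overlapping peaks held 582 tags in DRB, 1450 in ActD and 716 in DMSO. The region at chr22:41043258-41044681 had 123 tags and lay 47911 bp from the start of EP300, with 616 tags in DRB, 64.3 in ActD and 87.2 in DMSO. At the start of the non-coding DLGAP1-AS2 on chromosome 18, the region had 122 tags, with 2320 in DRB, 1820 in ActD and 2510 in DMSO. Of the 10 regions with the highest tag counts outside chromosome 8, one, at chr18:5307344-5308435 with 100 tags, had a peak in none of those 3 lists, and the CHST13 region with 68.7 tags had one in DRB alone. The 5 largest folds over control outside chromosome 8, 62.2 to 83.5, belonged to regions with 17 to 27 tags over 0.3 to 0.5 control tags. They included a region inside TIAM1, an activator of the GTPase RAC1, at 78.5-fold, and one inside TNFAIP8 at 62.2-fold, and all 5 had peaks in DRB, ActD and DMSO.

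Genes with a region at a start numbered 416 of the 26246 with a start, or 1.59%. Of these, 203 also had a siNTC peak within 1000 bp of a start, not necessarily the same start, and 213 (51.2%) had none. PRMT5, an arginine methyltransferase and a known MYC target, had the highest tag count of a coding gene. Its region at chr14:22928690-22931255 spanned the start with 89.5 tags and a fold of 4.23. The overlapping peak held 579 tags in DRB, 285 in ActD and 405 in DMSO, and the nearest siNTC peak was 9192 bp away. ING4, a subunit of a histone acetyltransferase complex, had 56.7 tags in siMyc, 514 in DRB, 1130 in ActD and 1360 in DMSO. APEX1, a base excision repair endonuclease, shares its region with the neighbouring OSGEP, with 49.2 tags in siMyc, 498 in DRB, 1080 in ActD and 2020 in DMSO. IARS1, an isoleucyl-tRNA synthetase, had 52.4 tags in siMyc, 840 in DRB, 1800 in ActD and 2770 in DMSO. NLRC4, an inflammasome component, had 52.5 tags in siMyc, 233 in DRB, 195 in ActD and 80.5 in DMSO. None of these 5 genes had a siNTC peak within 1000 bp of a start, and all had one in the DMSO list, so for them siNTC was the list without a call. Among regions in none of the DRB, ActD and DMSO lists, the highest coding genes were LTC4S, leukotriene C4 synthase, with 25 tags, YPEL4 with 17.1 tags and DEFB127, a beta-defensin, with 16.9 tags. The LTC4S region lay 1441 bp from a siNTC peak of 426 tags. Those of YPEL4 and DEFB127 lay 3130 and 109589 bp from siNTC peaks of 6.85 and 68.4 tags. Nascent RNA of those 3 in untreated cells was 0.23, 0.477 and 0.0397 CPM.

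Regions lay at the starts of a few genes in the lists of growth and cell-cycle genes, where 1.59% of all genes had one. Among MYC targets in ribosome biogenesis and growth, 2 of 36 with a start had one (5.56%), PRMT5 and EIF4E. The EIF4E region, with 14.9 tags, lay 70 bp from a siNTC peak of 288 tags, and its DMSO peak held 1370 tags. Among S-phase genes 3 of 47 had one (6.38%). That of TK1, thymidine kinase, held 27 tags, lay 17902 bp from a siNTC peak, and had 356 tags in DRB, no peak in ActD and 55.5 tags in DMSO. Those of CDC6, a replication licensing factor, and RRM2, a ribonucleotide reductase subunit, held 11.6 and 10.6 tags and lay 137 and 741 bp from a siNTC peak. Their DMSO peaks held 566 and 1540 tags. Among G2 and mitosis genes 2 of 35 had one (5.71%), the centromeric histone CENPA with 16.7 tags and the kinesin KIF20A with 8.44 tags. They lay 1949 and 577 bp from a siNTC peak, and their DMSO peaks held 586 and 620 tags. Single genes had one in the lists of promyelocyte granule genes (RNASE2, 1 of 12), neutrophil and monocyte genes (FCGR2A, 1 of 22), ribosomal protein genes (RPL17, 1 of 60) and p53 targets (SESN2, 1 of 17). In that order, these regions lay 2073, 868, 45 and 7392 bp from a siNTC peak. The DMSO peaks of RNASE2, RPL17 and SESN2 held 52.1, 1380 and 477 tags, while the FCGR2A region had no DMSO peak. None had one among 14 genes of the MYC network, 20 that encode H2A.Z or subunits of the SRCAP and TIP60 complexes, 17 myeloid transcription factors and receptors, 28 immediate early genes, and 5 erythroid, 11 lymphoid and 7 epithelial or fibroblast markers. These shares rest on 1 to 3 genes a list and were not tested against the 1.59% over all genes.

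Most genes with a region at the start were transcribed in untreated cells. The 161 measured genes with a region and no siNTC peak had a median nascent RNA level of 7.4 CPM and 72% reached 1 CPM. The 178 with both had 11.8 CPM and 84.3%. By comparison, the 9412 genes with a siNTC peak and no region had 12.2 CPM and 84.2%, and the 8586 with neither had 0.119 CPM and 10.7%. Relative to DMSO, nascent RNA in DRB was at least 2-fold lower for 144 and higher for 17 of 253 measured genes with a region (56.9% lower and 6.72% higher), against 56.9% lower and 6.94% higher over all 8515 genes measured. In ActD it was at least 2-fold lower for 121 and higher for 38 of 253 (47.8% and 15%), against 51.6% and 13.1% over all genes. The median log2 ratio was -1.40 in DRB and -0.87 in ActD, against -1.28 and -1.08 over all genes. Centred on the median gene, those of genes with a region were -0.12 in DRB and 0.21 in ActD. These ratios compare single libraries, and the shares lie near the background.

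The regions were spread unevenly over the chromosomes. Chromosome 18 held 571 regions, 10.4% of them, against 3.65% of the input DNA counts over genes in DMSO cells, a ratio of 2.84. Shared peaks stood at a ratio of 0.598 there. Of all siMyc peaks on chromosome 18, 74.9% were absent from siNTC, and 83.2% of these were in none of the DRB, ActD and DMSO lists, with 7.88% in DMSO. Input counts per base of coding genes on chromosome 18 were 2.07 times those over all chromosomes. Chromosomes 20, 8, 6 and 13 followed with ratios of 1.61, 1.58, 1.54 and 1.44. The lowest ratios were 0.402 on chromosome 16, 0.437 on chromosome 19, 0.542 on chromosome 11 and 0.57 on chromosome 17. Several of these ratios depended on the yardstick. Over bases in place of input counts, chromosome 17 stood at 1.03, chromosome 19 at 0.996 and chromosome 8 at 1.1. Over bases times input density, chromosome 19 stood at 1.25, chromosomes 13 and 17 both at 0.963 and chromosome 8 at 1.22. Across the 22 chromosomes, the ratio of regions to bases went with input density at Pearson r = 0.80 and Spearman rho = 0.48, and r was 0.36 without chromosome 18. For shared peaks r was -0.16. The chromosomes share one library, so these are descriptions.

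**Figure D4:**
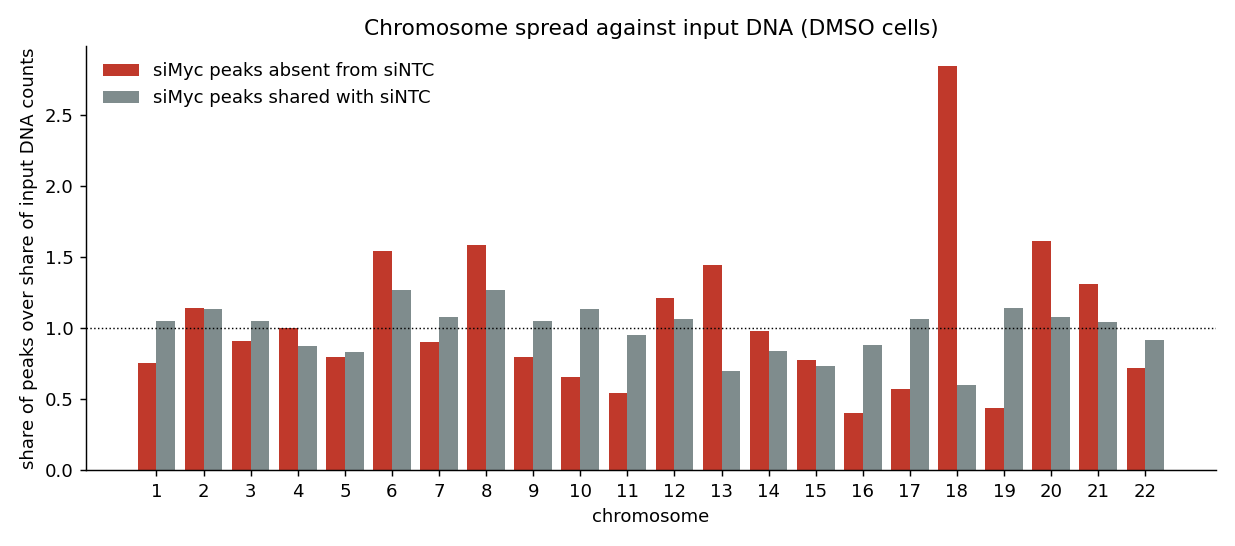
Share of peaks on each chromosome divided by its share of input DNA counts over genes in DMSO cells, for siMyc acH2A.Z peaks absent from siNTC (red) and shared with it (grey), where the dotted line at 1 marks equal shares. Chromosome 18 stands at 2.84 for absent peaks and 0.598 for shared peaks.

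Within chromosomes the regions were clustered. In stretches of 1000000 bases, 52 stretches with 10 or more regions held 809 of them (14.7%), while 1955 stretches had at least 1. Outside chromosome 8, the stretch with most, 47 regions, was chr12:46000001-47000000, with the amino acid transporters SLC38A1, SLC38A2 and SLC38A4, and 41 of its regions were in none of the DRB, ActD and DMSO lists. It held 12 shared peaks, and its input density was 3.23 times that of all coding genes. Its neighbours on chromosome 12 held 32, 29 and 27 regions. The run chr12:42000001-49000000 held 170 regions, or 48.9% of the 348 on the chromosome, at an input density of 1.64, against 0.965 in the rest. The run chr6:133000001-138000000 held 98, or 21% of 466, at an input density of 2.72, against 0.885 in the rest. One stretch there, chr6:133000001-134000000, with EYA4 and TCF21, held 33 regions and 2 shared peaks. The bounds of both runs were chosen after their counts were seen.

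Over the 1753 stretches with at least 3 coding genes and 20 input counts, regions per stretch were 1.42, 1.96, 2.23, 2.61, 3.44 and 5.65 with rising input density. Shared peaks were counted only in stretches that held a region. Their means per stretch are therefore too low and are not compared with those of the regions. At a density of 2 or more, 68.5% of the regions were in no acH2A.Z list of DRB, ActD or DMSO cells and 14.7% were in DMSO. Below 0.75 these shares were 48.1% and 30.4%. Over these stretches, input density moved with the number of regions at Spearman rho = 0.28, and with the number of siNTC peaks at 0.14. Stretches of chromosome 18 and of the chromosome 12 run described above are among those at a density of 2 or more. The part of input density in the calls was not tested. Input DNA of the siRNA-treated cells was not analysed here.

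**Figure D5:**
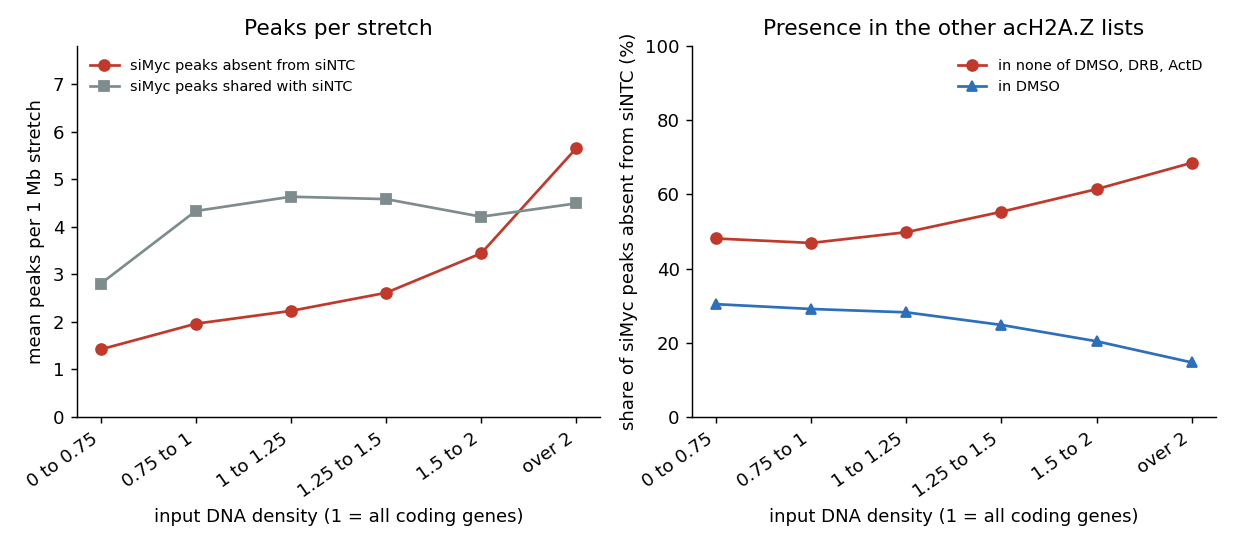
Left, mean number of siMyc acH2A.Z peaks per 1 Mb stretch by input DNA density (1 is the density over all coding genes) for peaks absent from siNTC (red) and shared with it (grey). Shared peaks were counted only in stretches that held an absent peak, so the grey means are too low and cannot be compared with the red. Right, percent of the absent peaks found in none of the DMSO, DRB and ActD acH2A.Z lists (red) or in DMSO (blue), where the share in none is 48.1% in the lowest density class and 68.5% in the highest.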

How the data were processed

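Libraries were grouped by their titles, with 1 library per group. The submitters' processing notes name STAR 2.5.2b, HOMER, cutadapt, Trim Galore and FastQC as tools and GRCh38 as build. Per the file headers, the authors' peak lists are HOMER output, called per library. The deposited normalized tag count is a signal value, taken as tags per 10000000, HOMER's default. In the acH2A.Z siMyc list the control was scaled to the immunoprecipitation and in the siNTC list the reverse, per the file headers, and the control library was not named. The deposited score, fold over control and p-value were used to rank, limit or describe peaks within a list. The deposited gene tables hold expected counts, whose quantifier is not given in the sources used here. IgG libraries were not analysed here.

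Peaks sharing 1 base were counted as overlapping (Python 3.11.15, numpy 2.4.6, pandas 2.3.3, scipy 1.17.1). Gene starts came from RefSeq (GRCh38.p14) and were not used for chromosome 8, so values on distance or starts leave it out. Gene tables were joined to RefSeq by identifier and symbol for 40887 of 58233 genes, with 81.8% of DMSO input counts. The input tables summed to between 440923 and 469547 counts and the RNA tables to between 12600067 and 25167597 counts, so input values per stretch are coarse. Expected counts were converted to CPM, and log2 ratios used a pseudocount of 1 CPM in genes that averaged 1 CPM or more and summed to 20 counts or more. Overlap and ratio steps were tested on simulated data. Shares have exact (Clopper-Pearson) 95% intervals. With no replicates, no p-value was computed.

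Named members, outside chromosome 8, were the 10 with the highest tag count, the 5 with the highest fold, the 10 genes with the highest tag count at a start, the top 5 such genes found in none and in all of the DMSO, DRB and ActD lists, genes of the fixed lists, and the 5 stretches with most members, of which some are printed. Sequences were the top coding stretches wholly inside members. The members and lists were chosen with earlier results of these data known.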

Additional observations from a re-analysis of the deposited data

How the results depend on the processing

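No paired analysis was possible because each group holds 1 library, and for the same reason no replicate could be left out. Of 57 alternatives over 14 results, 22 stayed within the counting interval (1.5 times for the count), 33 moved and 2 reversed. Those without chromosome 18, beyond 1000 bp from siNTC and with bases times input density were chosen after seeing the data.

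The 5514 regions became 1956 with a siMyc fold of at least 8, 2725 with that fold in both lists and 1506 in the better-scoring part of the siMyc list. The share at a start (6.91%) was 21.8% within 5000 bp, 1.92% with the start inside the peak and 4.93% for a fold of at least 8, where the median tag count was 10.3. With 50% of the region covered, presence was 18% in DMSO, 31.4% in DRB, 25.9% in ActD and 5.53% in H2A.Z siMyc. With the other list at a fold of at least 8 it was 31.8% in DRB, 23.8% in ActD and 2.19% in H2A.Z siMyc. With lists widened by 500 bp it was 24.6%, 39.3% and 34.2% in DMSO, DRB and ActD, without chromosome 18 22.6%, 37.5% and 31.8%, and beyond 1000 bp from siNTC 16.9%, 30.3% and 25.6%. The chromosome 18 ratio was 3.71 over bases, 5.22 over genes and 1.85 over bases times input density. That of chromosome 20 was 1.97 over bases and 2.03 over bases times input density, and that of chromosome 19 was 0.996 over bases and 1.25, reversed, over bases times input density. The DRB median log2 ratio was -1.65 with a pseudocount of 0.1 CPM, -0.81 unfiltered and -0.12 centred. The ActD median was -0.43 unfiltered and 0.21 when centred. The centred value was counted as reversed for its sign, but its zero is the median gene and not the DMSO level. The cause of the other shifts was not tested. Of the regions, 93.1% had fewer than 20 tags. The part of the siMyc library's depth and peak strength in the counts of absent and present peaks was not tested.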

Other observations

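The rule was limited to chromosomes 1 to 22. On chromosome X, 50 of 238 siMyc acH2A.Z peaks shared no base with a siNTC peak, with a median of 9.89 tags. That is 21% (exact 95% binomial interval 16 to 26.7), against 38.7% (37.9 to 39.5) on chromosomes 1 to 22. The siNTC list held 426 peaks on chromosome X, and 16908 on chromosomes 1 to 22 where siMyc had 14264. The part of these list lengths in the difference was not tested.

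Read from the DMSO list, siMyc peaks touched 83.2% of the 1000 DMSO acH2A.Z peaks with the highest tag counts, and siNTC peaks touched 98.1%. Of these 1000, 84 touched a region absent from siNTC, yet 13 touched siMyc and no siNTC peak at all. Among DMSO ranks 10001 to 16489 the shares touched were 26.6% by siMyc and 45.6% by siNTC, and 443 touched siMyc and no siNTC peak.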
